A study of Mus musculus with 14 samples.

Results

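A set of 10 genes for transcription factors that act in the hematopoietic stem cell (HSC) were followed across 7 groups of mouse arrays: Runx1, Gata2, Tal1, Lmo2, Meis1, Mecom, Gfi1, Gfi1b, Etv6 and Fli1. A probe set was taken as a member when the array's probe annotation gave it 1 of these 10 symbols and no other. This rule found 17 of the 22626 probe sets on the array, 20380 of which carry a single symbol and stand for 12393 genes. Runx1 was read by 5 probe sets, Gata2, Mecom and Fli1 by 2 each, and the other 6 genes by 1 each. For a gene with several probe sets, the one with the highest mean over the 14 arrays is called its lead probe set.

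Male C57Bl/6 wild-type (WT) mice gave HSC at 2, 6, 12 and 21 mo of age and whole bone marrow (WBM) at 2 mo. A pair of mutant lines, also labelled male C57Bl/6, gave HSC at 12 mo: p53+/- mice keep 1 functional allele of the tumor suppressor p53, and p53+/m mice carry a shortened m allele, described as raising the p53 response, beside a normal one. The study's methods state that the p53 mice were back-crossed onto C57Bl/6 over several generations. In comparisons with WT and between the mutant lines, genotype and remaining background therefore cannot be told apart. No treatment was named for any group, and each group had 2 arrays, A and B. HSC were sorted by efflux of the dye Hoechst (the side population), with c-Kit and Sca-1 on the surface and no lineage markers, and RNA pooled from 2 to 5 mice went on each HSC array after amplification. A pool therefore stands behind each HSC value, no pooling was stated for WBM, and p-values measure the spread between arrays. One label field lists an age of 2 months even for the older animals; the ages used here come from the titles and treatment fields. Trp53 itself had no probe set with a single symbol and was not analysed here, so the genotypes were not checked against their targeted gene.

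Values are log2 GC-RMA values as deposited, which are background corrected and normalized. They allow 1 probe set to be compared between arrays, but not 1 gene with another. A log2 value of 5 served as the mark for a low level, and 42.7% to 43.6% of all probe sets reached it on each array. The labelled cell types matched their markers: the median of 10 HSC markers was 8.56 to 9.74 on the HSC arrays against 5.53 and 5.54 in WBM, and of 8 erythroid markers none reached 5 on any HSC array and all did in WBM. At 21 mo, the medians of 11 neutrophil markers (7.10 and 5.58) and of 8 monocyte markers (5.19 and 6.17) lay above those of every other HSC array (at most 4.91 and 4.22). The arrays of the WT 12 mo group differed most from each other, with a median absolute difference between A and B of 0.21 over all probe sets against 0.05 to 0.09 in the other groups. In a principal component analysis of the HSC arrays the first axis held 42.1% of the variance; on it, 12 mo A lay at 56.4, near the 21 mo arrays (67.4 and 64.8), and 12 mo B at -42.9, near the 2 mo arrays (-53.2 and -54.6). The 18S ribosomal RNA control read at its 5′ end was 10.91 and 10.88 at 2 mo, 11.19 and 8.28 at 6 mo, 4.66 and 9.68 at 12 mo, and 4.84 and 5.44 at 21 mo. It was 8.92 and 7.96 in p53+/-, 5.71 and 7.18 in p53+/m, and 5.32 and 5.14 in WBM.

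These factors are known as parts of 1 regulatory network that keeps blood stem cells multipotent. Tal1 binds E-boxes together with E proteins, Gata2 binds GATA sequences, and Lmo2, which does not itself bind DNA, bridges both through Ldb1. Runx1 binds DNA with its partner Cbfb, Fli1 and Etv6 belong to the ETS family (an activator and a repressor, respectively), Meis1 binds with Pbx and Hox proteins such as Hoxa9, and Mecom is a zinc finger factor of long-term HSC. Gfi1 and Gfi1b are related zinc finger repressors that recruit the histone demethylase Kdm1a and its partner Rcor1, and each is known to dampen the gene of the other. Gfi1 restrains HSC cycling and is needed for neutrophils, whereas Gfi1b acts in HSC, red cell precursors and megakaryocytes.

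The promoter windows of the genes that passed a test below are shown here, to give the sequence in which such factors could bind. Windows run from 250 bases before to 50 bases after a RefSeq gene start (mouse build GRCm38.p6) and are written 5′ to 3′ on the strand of the gene. A set of 6 motifs, chosen after the sequences were seen, were searched on both strands, and capitals mark every match: GATAA for GATA factors, GGAAG for ETS factors, CAGATG for the Tal1 E-box, TGTGGT for Runx1, TGACAG for Meis1 and AAATCA for Gfi1 and Gfi1b. Of the 10 genes, 8 had at least 1 window, 13 in all; Lmo2 and Fli1 had none. For each gene the window with the most matches is printed, and for Gata2, whose windows tie, the first in the table.
Gata2, chr6:88193641-88193940, plus strand: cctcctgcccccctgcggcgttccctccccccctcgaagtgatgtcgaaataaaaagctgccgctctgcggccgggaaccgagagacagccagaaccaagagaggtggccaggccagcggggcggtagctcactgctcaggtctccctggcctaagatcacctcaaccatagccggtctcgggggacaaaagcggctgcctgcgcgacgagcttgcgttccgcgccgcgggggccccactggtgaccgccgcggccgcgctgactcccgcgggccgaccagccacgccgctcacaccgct
Meis1, chr11:19018920-19019219, minus strand: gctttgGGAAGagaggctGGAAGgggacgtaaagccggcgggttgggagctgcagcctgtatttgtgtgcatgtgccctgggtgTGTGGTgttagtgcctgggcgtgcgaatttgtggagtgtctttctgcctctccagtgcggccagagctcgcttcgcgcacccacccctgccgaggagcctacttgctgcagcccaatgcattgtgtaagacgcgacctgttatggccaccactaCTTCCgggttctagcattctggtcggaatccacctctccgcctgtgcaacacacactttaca
Gfi1, chr5:107724294-107724593, minus strand: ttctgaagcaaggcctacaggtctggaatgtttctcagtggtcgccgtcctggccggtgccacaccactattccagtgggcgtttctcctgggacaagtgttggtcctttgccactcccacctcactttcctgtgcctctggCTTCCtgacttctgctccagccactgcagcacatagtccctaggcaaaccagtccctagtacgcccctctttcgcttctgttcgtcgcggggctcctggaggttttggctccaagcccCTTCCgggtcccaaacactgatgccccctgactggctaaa
Gfi1b, chr2:28621933-28622232, minus strand: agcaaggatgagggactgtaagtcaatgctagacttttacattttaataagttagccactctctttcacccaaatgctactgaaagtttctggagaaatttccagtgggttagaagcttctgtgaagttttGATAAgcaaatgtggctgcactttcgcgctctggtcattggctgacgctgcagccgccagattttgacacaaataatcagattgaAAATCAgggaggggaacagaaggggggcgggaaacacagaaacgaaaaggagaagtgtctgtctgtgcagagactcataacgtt
The Gfi1b window held 1 GATA match, 119 bases before the start, and 1 Gfi match, 34 bases before it. The Meis1 window held 3 ETS matches and 1 Runx match, the Gfi1 window held 2 ETS matches, and neither Gata2 window held any of the 6 motifs. Short motifs are common: of all 32851 windows of this length, 25.4% held the GATA letters, 71.4% the ETS letters, 17.2% the E-box, 16.8% the Runx letters, 19.2% the Meis letters and 14% the Gfi letters. Among the 13 windows of the 10 genes the corresponding numbers were 4, 6, 2, 2, 1 and 3. A match is a description of the letters and not evidence of binding.

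Of the 17 member probe sets, 12 reached 5 on some array. Lmo2 was read at 11.72 to 13.05 on the 12 HSC arrays, Tal1 at 9.96 to 11.70, Meis1 at 10.66 to 12.48 and the lead Gata2 probe set at 8.98 to 10.18. These 4 genes, 3 of which encode parts of the Tal1, Lmo2 and GATA complex, therefore stood well above the mark for a low level in every HSC pool. Mecom stood apart: its lead probe set (1423011_at) lay between 3.29 and 3.80 and its other (1422295_at) between 2.19 and 2.26 on all 14 arrays. Neither reached 5 anywhere, so these probe sets give no measured level of Mecom in any group. The same held for 3 of the 5 Runx1 probe sets (1422865_at, 1427650_a_at and 1452530_a_at), whose values stayed between 1.62 and 2.46. Over all 7 comparisons the differences of these 5 low probe sets ranged from -0.23 to 0.22 on the log2 scale.

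**Figure D1:**
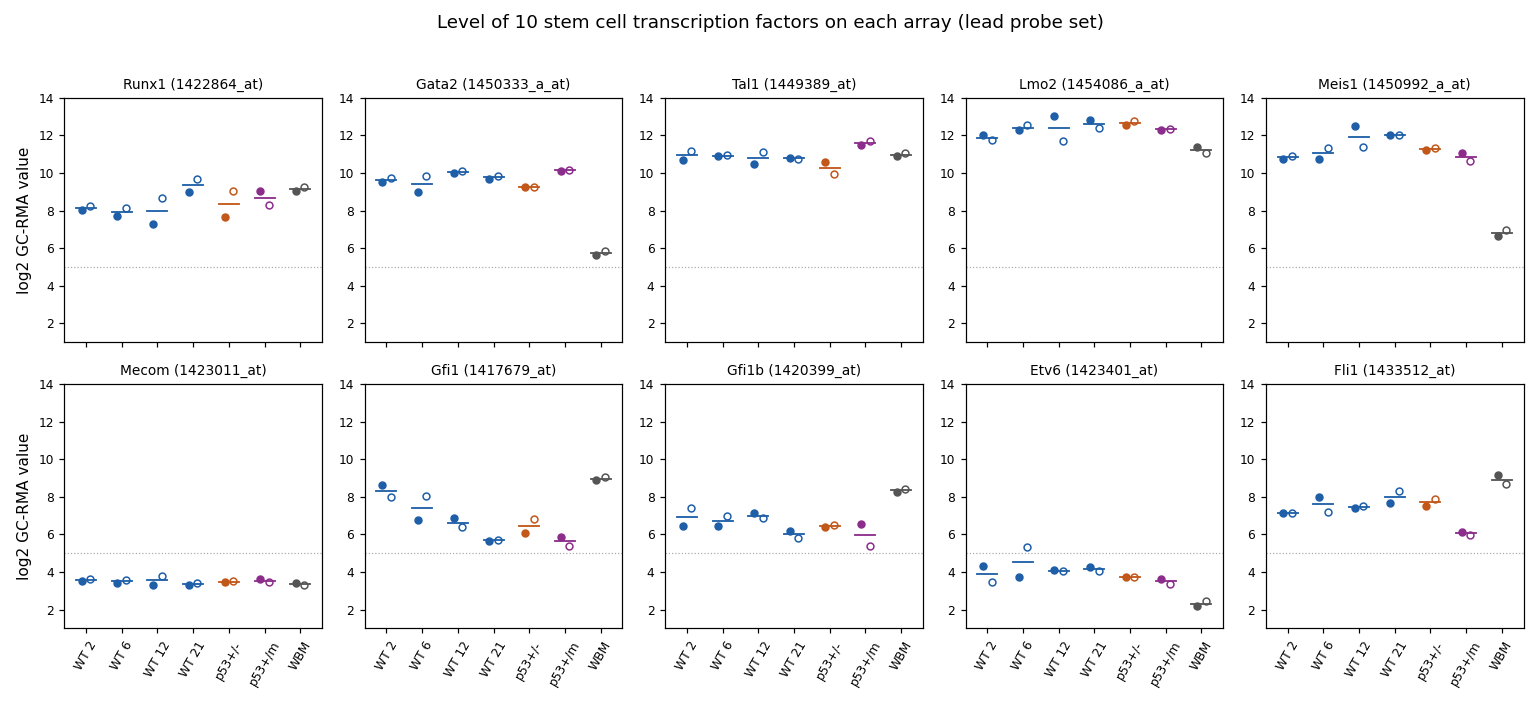
Log2 GC-RMA values (y axis) of the lead probe set of each of the 10 genes in 7 groups (x axis; WT 2 to WT 21, WT HSC by age in mo; p53+/- and p53+/m, HSC at 12 mo; WBM, WT at 2 mo). Filled points are array A, open points array B, bars the mean of the 2, and the dotted line a log2 value of 5. Gata2 and Meis1 stand lowest in WBM, Gfi1 declines across the WT ages, Fli1 is lowest in p53+/m, and Mecom stays under 5 throughout.

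The comparison of HSC with WBM at 2 mo asks which of these genes set stem cells apart from marrow as a whole. A probe set was called higher or lower when limma gave a Benjamini-Hochberg adjusted p under 0.05 over all 22626 probe sets and the difference was at least 2-fold. By this rule 3 of the 17 member probe sets were higher in HSC (2 for Gata2 and 1 for Meis1), where 11.0% of all probe sets were called higher. Lower were 2, those of Fli1 and Gfi1b, where 9.69% of all were called lower. The median difference over the 17 was -0.03, beside -0.02 over all probe sets. Over the 10 lead probe sets it was 0.09, beside -0.01 over all genes. WBM is a mixture, and in it fewer cells of a type and less RNA per cell cannot be told apart. The 5′ 18S control also differed between these groups, at 10.91 and 10.88 in HSC against 5.32 and 5.14 in WBM, and its part in the differences was not tested.

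Gata2, the GATA factor of stem and progenitor cells, read 9.50 and 9.73 in HSC at 2 mo and 5.61 and 5.85 in WBM on its lead probe set (1450333_a_at). The arrays of the groups did not overlap, and all 12 HSC arrays lay above both WBM arrays. For Gata2 and the genes below, the share of all probe sets with every HSC array on the same side of WBM was not counted. The difference was 3.88 ± 0.28 on the log2 scale (SE, n = 2 and 2 arrays, limma adjusted p = 3.10e-04), or 14.7-fold. The other Gata2 probe set (1428816_a_at) read 7.44 on both HSC arrays and 5.36 and 4.65 in WBM, a difference of 2.43 ± 0.25 (SE, limma adjusted p = 0.00116), or 5.40-fold. Both probe sets of the gene therefore gave the same direction, and no alternative setting removed either call.

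Meis1, the homeobox partner of Hoxa9, read 10.77 and 10.92 in HSC and 6.65 and 6.99 in WBM. That separation was the largest of the 10 genes on this contrast, at 4.02 ± 0.38 (SE, limma adjusted p = 8.48e-04) or 16.2-fold, and it passed the test under every alternative setting. Etv6, the ETS repressor needed for HSC in adult marrow, read 4.31 and 3.49 in HSC and 2.17 and 2.43 in WBM. Every one of the 12 HSC arrays lay above WBM, but only 1 of them (6 mo B, at 5.31) reached 5, and the difference of 1.60 ± 0.53 (SE) missed the threshold (limma adjusted p = 0.0846). Etv6 passed it without 6 mo A or 6 mo B (adjusted p = 0.0179 in either case), in a fit of all 14 arrays (0.0334) and with the mean of the 4 HSC ages set against WBM (0.0208).

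Fli1 was lower in HSC. This ETS activator, which also drives megakaryocyte genes, read 7.15 and 7.16 in HSC and 9.15 and 8.68 in WBM on its lead probe set (1433512_at). No HSC array of any age or genotype reached the WBM values. The difference was -1.76 ± 0.33 (SE, limma adjusted p = 0.0126), which is 3.39-fold lower in HSC, and it lost the call without 2 mo A (adjusted p = 0.0625), without 2 mo B (0.0638) or without WBM A (0.0760). The second Fli1 probe set (1422024_at) did not repeat this: it read 4.92 and 3.99 in HSC and 3.95 and 5.38 in WBM, overlapping and mostly under 5.

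Gfi1b read 6.43 and 7.43 in HSC at 2 mo and 8.27 and 8.41 in WBM. All 12 HSC arrays were below WBM, and at 2 mo the difference was -1.41 ± 0.35 (SE, limma adjusted p = 0.0349), or 2.66-fold lower in HSC. This call was lost in 6 of 17 alternative settings, which include leaving out 2 mo A (adjusted p = 0.0939), 21 mo A or 21 mo B (0.0607 each), WBM A (0.122) or WBM B (0.149). The erythroid markers, which mark cells where Gfi1b is known to be active, had a median of 11.44 and 11.60 in WBM against at most 2.36 on the HSC arrays, with all 8 above 5 in WBM and none in HSC; their part in the difference was not tested. Its relative Gfi1 read 8.65 and 8.0 in HSC at 2 mo and 8.87 and 9.07 in WBM, a difference of -0.64 ± 0.44 (SE, limma adjusted p = 0.453, 95% interval -1.74 to 0.45). All 12 HSC arrays lay below WBM in Gfi1 as well, and with the mean of the 4 HSC ages set against WBM the difference was -1.96 and passed (limma adjusted p = 0.00893). How common it is among all probe sets that every HSC array lies below WBM was not counted, so this separation adds no weight to the calls.

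Tal1, Lmo2 and Runx1 did not pass the test between HSC and WBM. Tal1, the core bHLH factor of blood stem cells, read 10.71 and 11.19 in HSC and 10.90 and 11.06 in WBM, overlapping values with a difference of -0.03 (95% interval -0.63 to 0.57). For Lmo2, the bridge of the complex, the values were 12.01 and 11.75 against 11.36 and 11.08, and for the lead Runx1 probe set (1422864_at) 8.01 and 8.22 against 9.02 and 9.27. Lmo2 was thus higher and Runx1 lower in HSC on the arrays themselves, with differences of 0.66 (95% interval -0.39 to 1.71) and -1.03 (95% interval -2.22 to 0.16). Such a separation was common: between HSC and WBM at 2 mo, the arrays of 29.1% of all probe sets lay apart as higher in HSC and 37% as lower. Runx1 passed, as lower in HSC, without 12 mo A or without 12 mo B (limma adjusted p = 0.0434 in either case).

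The partners of the 10 factors split in the same comparison. Genes of this list and of the other lists below were read on their lead probe set alone, without a check on other probe sets. Of 19 measured partners and cofactors (20 listed), 4 were higher in HSC: Hoxa9 by 5.64 (13.62 against 7.98), the adaptor Ldb1 by 4.28 (7.64 against 3.35), the deacetylase Hdac1 by 1.72 and the Ldb1 stabilizer Ssbp2 by 1.48. The corepressor Cbfa2t3 (-2.07) and Rcor1 (-1.19), the partner of Gfi1 and Gfi1b, were lower, although Rcor1 lost the call under 8 of 17 alternative settings. The counts over all genes were 1643 higher and 1320 lower of 12393. Of the factors that work with Ldb1, Gata2 was called higher in HSC, as Ldb1 was, whereas Tal1 and Lmo2 were not called. Hoxa9 and Meis1 were both called higher.

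Among 13 measured family relatives (16 listed) only Gata3 was called higher in HSC, by 3.40 (5.97 against 2.57). Gata1, which follows Gata2 in red cell and megakaryocyte development, was lower in HSC, where its 2.43 was under the mark of 5, than in WBM (9.93), so the 3 GATA factors differed in direction between these cells. The lymphoid ETS factor Ets1 (-3.45), Lmo4 (-2.16, lost in 6 of 17 alternative settings) and Lmo1 (-1.07, under 5 in both groups) were also lower. Of 18 measured other stem cell factors (20 listed), 7 were higher and 2 lower. Beside Hoxa9 and Ldb1, which are on this list as well, Hlf (3.83) and Hoxb4 (3.35) led the higher ones, and Cited2 (-2.08) and Hhex (-1.46) were lower. Cited2 lost the call in 10 of 17 alternative settings, with differences between -2.44 and -0.91, and Hhex in 6 of 17.

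Of 15 measured lineage factors (17 listed), 1 was higher (Gata3) and 5 lower, led by Gata1, the erythroid factor Klf1 (-7.34), the B cell factor Ebf1 (-7.34) and Irf8 (-2.92), a factor of monocytes and dendritic cells. Of 15 measured reported target genes (17 listed), 4 were higher in HSC: the cell cycle inhibitor Cdkn1a (4.45), the surface proteins Esam (4.04) and Cd34 (3.20), and the receptor Tek (2.33). Cd34 lost the call in 4 and Tek in 3 of 17 alternative settings. The granule genes Mpo (-9.80) and Elane (-4.23), the receptors Csf1r (-6.57) and Epor (-3.22), and 1 more were lower. For many of these genes the lower group was under 5, so the size of the difference rests on values at the low end of the array. With 5 put in place of the lower mean, the gap was 7.35 for Mpo, 5.69 for Ebf1, 4.93 for Gata1, 4.4 for Csf1r, 4.22 for Klf1, 3.6 for Esam, 2.64 for Ldb1, 1.99 for Tek, 1.45 for Elane, 0.97 for Gata3 and 0.45 for Epor. These lists were chosen with earlier results of these data known, and several of their genes also serve as markers of the cells that make up WBM.

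**Figure D2:**
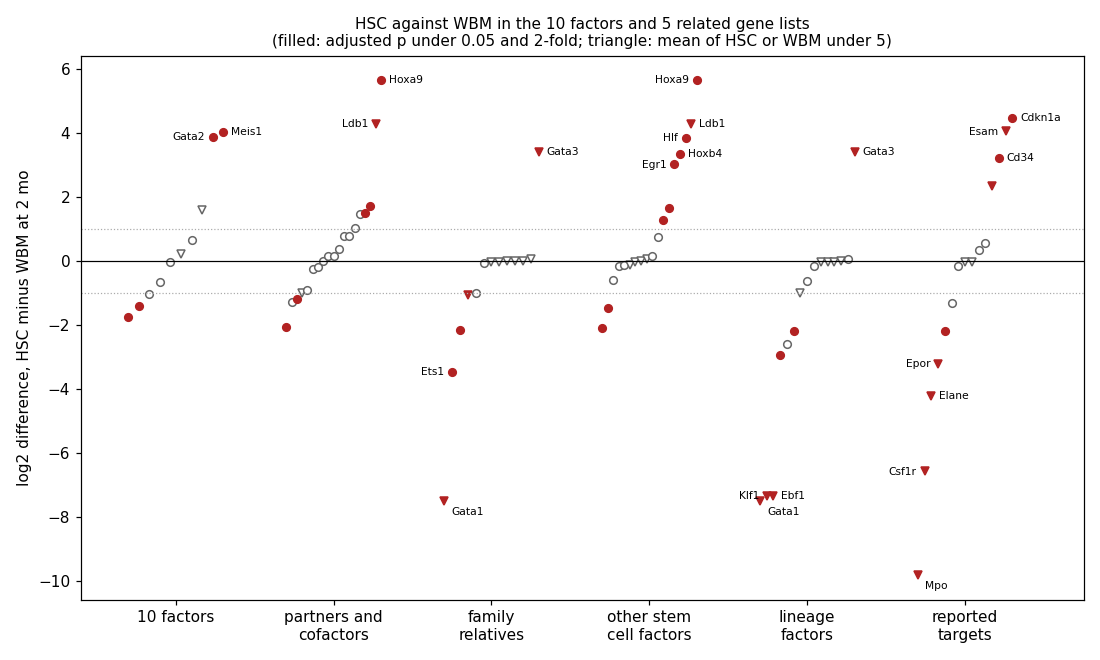
Log2 difference of HSC minus WBM at 2 mo (y axis) for the lead probe set of each measured gene in the 10 factors and 5 related lists (x axis), sorted within a list. Each point is 1 gene, filled where limma gave an adjusted p under 0.05 and at least 2-fold, with names at differences beyond 3, and triangles mark genes whose mean in HSC or WBM was under 5, where the size of the difference rests on low values. Meis1 and Gata2 lead the 10 factors at 4.02 and 3.88, and Gata1 (-7.50) and Mpo (-9.80) have the lowest values in their lists.

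For age, a quadratic curve in months was fitted to the 8 arrays of WT HSC, the form used in the study's methods, and the change given is the fitted value at 21 mo minus that at 2 mo. Of the 17 member probe sets, 1 was lower with age, that of Gfi1, where 1.51% of all probe sets were called lower. None was called higher, where 1.32% of all were. At an unadjusted p under 0.05 and 2-fold, limma gave 2 higher (Meis1 and the lead Runx1 probe set) and 1 lower. By that rule 1506 of all 22626 probe sets were higher and 1485 lower. The median change of the 17, which include 5 under the low mark on all arrays, was 0.00, beside -0.02 over all probe sets. Over the 10 lead probe sets it was 0.20, beside -0.02 over all genes. Between 2 and 21 mo the arrays of 20.9% of all probe sets lay apart as higher and 48% as lower.

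Gfi1, which holds HSC in a resting state and is required for neutrophils, fell with age. Its values were 8.65 and 8.0 at 2 mo, 6.77 and 8.05 at 6 mo, 6.85 and 6.41 at 12 mo, and 5.67 and 5.69 at 21 mo. The 21 mo arrays lay below every younger WT array, the 2 mo arrays were the highest but for an overlap with 6 mo B, and the means descended through 8.32, 7.41, 6.63 and 5.68. The fitted change was -2.59 ± 0.42 (SE, n = 8 arrays, limma adjusted p = 0.0385), or 6.02-fold. Calls over all probe sets became fewer on leaving out any single 2, 6 or 21 mo array. Over 17 alternative settings the change in Gfi1 stayed between -2.79 and -2.32 with its direction kept in all, but the call was lost in 8 of them. It was lost without 2 mo A (adjusted p = 0.141), 2 mo B (0.126), 6 mo B (0.0676), 21 mo A (0.147) or 21 mo B (0.163), without both 12 mo arrays (0.0541) and with group means over the 8 arrays (0.0786); the remaining setting is given in the closing section. The call held without 12 mo A (adjusted p = 0.0356) and without 12 mo B (0.0330).

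The neutrophil markers were higher at 21 mo, where Gfi1 was lowest among the WT HSC. Of the 11 markers 7 and 6 reached 5 on the 21 mo arrays, against 1 to 5 on the younger WT arrays and 11 in WBM. The 18S control moved with age as well, from 10.91 and 10.88 at 2 mo to 4.84 and 5.44 at 21 mo. The part of RNA quality and of other cells in the change was not tested.

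Meis1 was higher at later ages without passing the test. It read 10.77 and 10.92 at 2 mo, 10.77 and 11.35 at 6 mo, 12.48 and 11.40 at 12 mo, and 12.04 and 12.01 at 21 mo. Both 21 mo arrays lay above all 2 and 6 mo arrays, and the highest value belonged to 12 mo A. The fitted change was 1.31 ± 0.37 (SE, limma adjusted p = 0.119). Without 12 mo A it was 1.18 and passed (adjusted p = 0.0315), as it did without both 12 mo arrays (1.19, adjusted p = 0.0481) and with low probe sets left out (adjusted p = 0.0431).

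Runx1, needed for the emergence of HSC and for platelets and lymphocytes later, gave 2 different pictures. The lead probe set (1422864_at) read 8.01 and 8.22 at 2 mo, 7.72 and 8.13 at 6 mo, 7.26 and 8.68 at 12 mo, and 9.01 and 9.66 at 21 mo. Its 21 mo values were above all younger WT values, and the fitted change of 1.19 ± 0.45 (SE) did not pass in the main test (limma adjusted p = 0.210) or in any of 17 alternative settings. The other detected probe set (1452531_at) read 5.83, 6.24, 6.91 and 6.60 on the 2 and 6 mo arrays and 4.29, 6.28, 5.04 and 6.24 on the 12 and 21 mo arrays. These values overlapped, and the change of -0.82 ± 0.82 (SE, limma adjusted p = 0.696) had the opposite sign, so the probe sets of Runx1 disagreed on age.

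**Figure D3:**
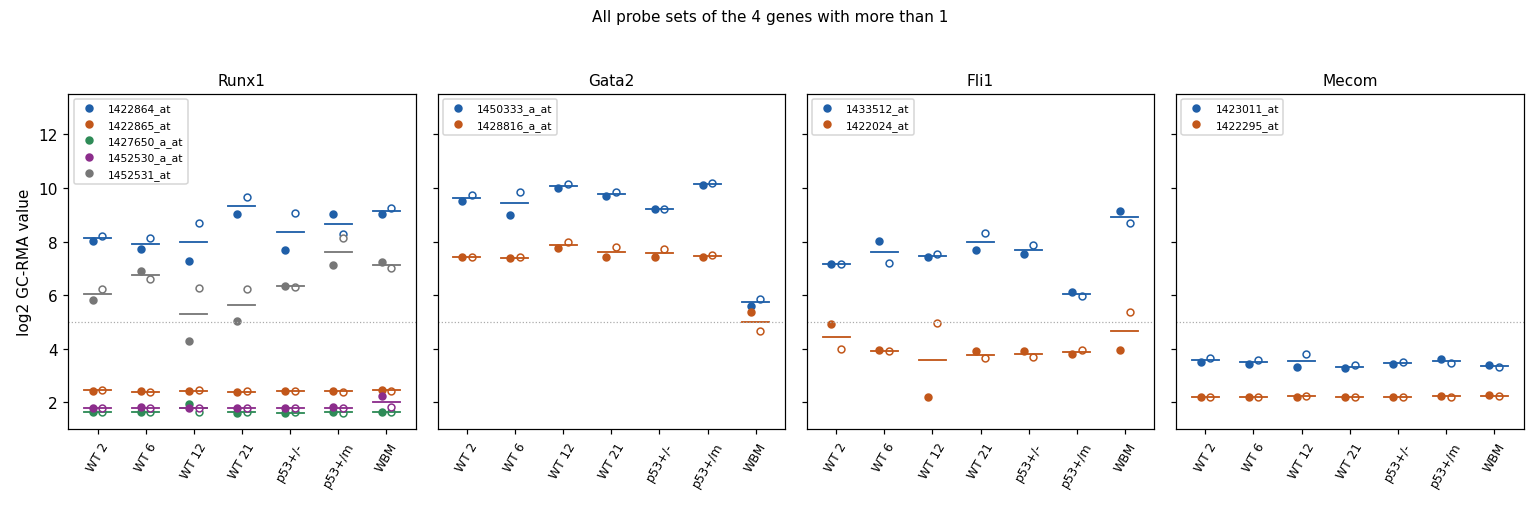
Log2 GC-RMA values (y axis) of every probe set of Runx1, Gata2, Fli1 and Mecom in the 7 groups (x axis, as in the plot of levels). Colors mark probe sets, filled points array A, open points array B, bars the mean of the 2 arrays, and the dotted line a log2 value of 5. Both Gata2 probe sets drop in WBM, 3 of 5 Runx1 probe sets stay between 1.62 and 2.46, and the second Fli1 probe set does not follow the first.

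The other 7 genes had fitted changes with age between -0.79 (Gfi1b) and 0.70 (Fli1), and none passed. Gfi1b, the relative of Gfi1, read 6.43 and 7.43 at 2 mo, 6.47 and 6.97 at 6 mo, 7.15 and 6.85 at 12 mo, and 6.16 and 5.83 at 21 mo. Its 21 mo arrays were the lowest of the 8, and its change was -0.79 ± 0.37 (SE, limma adjusted p = 0.307). Fli1 (1433512_at) read 7.15 and 7.16 at 2 mo and 7.67 and 8.31 at 21 mo, a fitted change of 0.70 (95% interval -0.11 to 1.51). For the core complex the 95% intervals of the change were -0.74 to 0.37 for Tal1, -0.48 to 1.14 for the lead Gata2 probe set and -0.40 to 1.65 for Lmo2. The 12 mo arrays of Lmo2 were far apart, at 13.05 and 11.72.

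The related lists, chosen with earlier results of these data known, held some genes called with age. Over all 12393 genes, 181 were higher and 253 lower. Among 19 measured partners Ldb1 fell, by -1.91 ± 0.17 (SE, limma adjusted p = 0.0157, 7.64 at 2 mo and 5.77 at 21 mo). None of 13 measured relatives was called. Of 18 measured other stem cell factors, Mycn (2.13, adjusted p = 0.0382), Hlf (1.52, adjusted p = 0.0424) and the early response factor Egr1 (1.27, adjusted p = 0.0406) rose and Ldb1 fell. Of 15 measured lineage factors Foxo1 rose (1.48) and Irf8 fell (-1.81). Of 15 measured reported targets Csf1r, the receptor for a monocyte growth factor, rose by 2.58, from 2.83, under the mark of 5, to 5.14. Each of these calls in the related lists was lost under between 2 and 10 alternative settings, with the direction kept throughout. Csf1r is also 1 of the 8 monocyte markers, of which 3 were called higher with age and 0 lower.

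In steps, with group means over 12 HSC arrays, the time course placed no member past the threshold. From 2 to 6 mo none of the 17 was called, where 0.0221% of all probe sets were higher and 0.0309% lower. None had an unadjusted p under 0.05 together with a 2-fold difference by limma, where 229 of all 22626 were higher and 89 lower. Differences of the lead probe sets ran from -0.91 (Gfi1) to 0.63 (Etv6). From 6 to 21 mo again none was called, where 0.884% were higher and 0.986% lower. At an unadjusted p under 0.05 and 2-fold, limma gave 1089 of all probe sets higher and 1110 lower, and 1 of the 17. That 1 was Gfi1, at -1.73 ± 0.47 (SE, limma adjusted p = 0.111), and it passed when low probe sets were left out (adjusted p = 0.0393). The differences in this step ranged up to 1.41 for Runx1 (95% interval -0.04 to 2.87) and 0.97 for Meis1 (95% interval 0.12 to 1.81). In the same step the lineage factors Cebpb (2.08), a factor of myeloid cells, and Foxo1 (1.03) rose, and Irf8 fell (-1.17, under 5 at both ages). The target Csf1r, which is also a monocyte marker, rose (3.04, from 2.10 to 5.14). Of these calls Irf8 was lost in 8 and Foxo1 in 4 of 18 alternative settings.

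**Figure D4:**
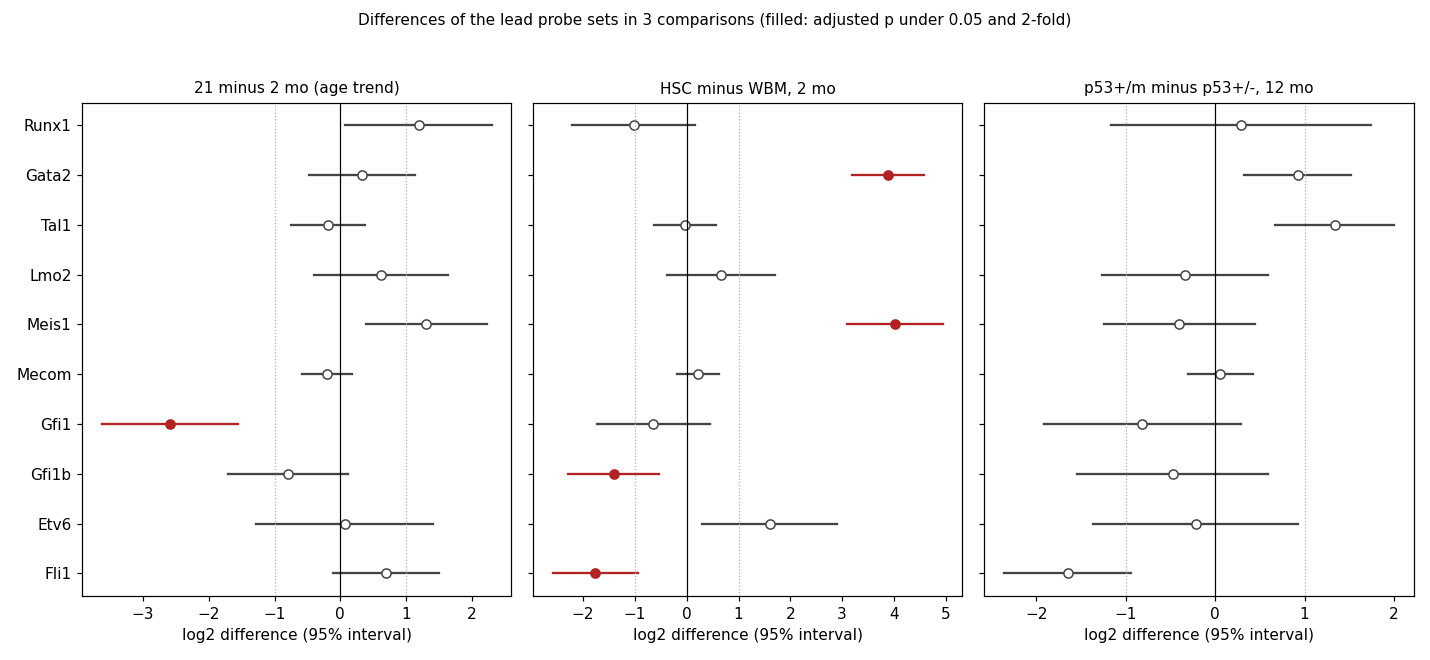
Log2 differences (x axis) of the lead probe set of each gene (y axis) for age (21 minus 2 mo of the trend over 8 WT HSC arrays), HSC minus WBM at 2 mo, and p53+/m minus p53+/- HSC at 12 mo. Lines are 95% intervals before adjustment over probe sets, filled points passed the adjusted test, and dotted lines mark 2-fold. Gfi1 is the factor that passed with age, Gata2, Meis1, Gfi1b and Fli1 passed against WBM, and none passed between genotypes.

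HSC of the p53 lines were compared with each other and with WT HSC of the same age, to see whether these genes differ with p53 dose. No member probe set was called in p53+/m against p53+/-, where 0.0840% of all probe sets were higher and 0.110% lower. At an unadjusted p under 0.05 and 2-fold, limma gave 1 higher (Tal1) and 1 lower (the lead Fli1 probe set), where 385 of all 22626 were higher and 401 lower. Against WT at 12 mo, none was called for p53+/m, where 0.208% were higher and 0.239% lower. At an unadjusted p under 0.05 and 2-fold, 1 was higher and 2 lower by limma, where 403 of all were higher and 541 lower. For p53+/- none was called, where 0.0796% were higher and 0.0840% lower. None reached an unadjusted p under 0.05 with 2-fold, where 263 of all were higher and 410 lower. Both comparisons with WT share the same WT arrays. Between p53+/m and p53+/- the arrays of 19.4% of all probe sets lay apart as higher in p53+/m and 15.2% as lower. Against WT these shares were 11.1% and 14.2% for p53+/m, and 8.23% and 21.7% for p53+/-. The 5′ 18S control was 5.71 and 7.18 in p53+/m, 8.92 and 7.96 in p53+/-, and 4.66 and 9.68 in WT at 12 mo, and its part in these differences was not tested.

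Fli1 gave the clearest separation. Its lead probe set read 6.13 and 5.97 in p53+/m, 7.52 and 7.88 in p53+/- and 7.41 and 7.52 in WT at 12 mo. The p53+/m arrays were the lowest 2 of all 14 arrays, and the p53+/- arrays lay just above those of WT. The difference was -1.65 ± 0.30 (SE, limma adjusted p = 0.0979) from p53+/- and -1.41 ± 0.30 (SE, limma adjusted p = 0.115) from WT, and neither passed under any of 18 alternative settings. The second Fli1 probe set read 3.79 and 3.97 in p53+/m and 3.91 and 3.69 in p53+/-, under 5 and without a separation.

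Tal1 stood on the other side, highest in p53+/m. It read 11.49 and 11.70 there, 10.56 and 9.96 in p53+/-, and 10.46 and 11.11 in WT at 12 mo. Both p53+/m values exceeded those of all other arrays, WBM included. For Tal1 as for Fli1, the share of all probe sets with such extremes in p53+/m was not counted. The difference from p53+/- was 1.34 ± 0.28 (SE, limma adjusted p = 0.139) and from WT 0.82 ± 0.28 (SE, limma adjusted p = 0.331). Gata2, its partner in the complex, read 10.12 and 10.18 in p53+/m, 9.23 on both p53+/- arrays, and 10.01 and 10.13 in WT on the lead probe set. Here p53+/- was the group that lay apart, by 0.92 below p53+/m (limma adjusted p = 0.252), but the other Gata2 probe set read 7.43 and 7.51 in p53+/m and 7.43 and 7.71 in p53+/- and did not repeat it.

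Where WT was the reference, its unlike arrays decided 2 values. Meis1 was 11.09 and 10.66 in p53+/m, 11.21 and 11.35 in p53+/-, and 12.48 and 11.40 in WT, a difference of -1.07 ± 0.36 for p53+/m minus WT (SE, limma adjusted p = 0.318). Without 12 mo B it was -1.61 and passed (adjusted p = 0.0262). The Runx1 probe set 1452531_at was 7.12 and 8.13 in p53+/m, 6.35 and 6.32 in p53+/-, and 4.29 and 6.28 in WT. Its difference from WT was 2.34 ± 0.70 (SE, limma adjusted p = 0.251), and without 12 mo B, which left 12 mo A alone to stand for WT, it was 3.33 and passed (adjusted p = 0.0309). The lead Runx1 probe set read 9.04 and 8.28 in p53+/m and 7.26 and 8.68 in WT, which overlap. Over all probe sets, p53+/m against WT likewise gave more calls in both directions without 12 mo B.

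Gfi1, the factor that fell with age, read 5.86 and 5.39 in p53+/m, 6.09 and 6.80 in p53+/-, and 6.85 and 6.41 in WT at 12 mo. The p53+/m arrays lay below both other groups and close to the WT 21 mo arrays (5.67 and 5.69), with a difference from WT at 12 mo of -0.999 ± 0.47 (SE, limma adjusted p = 0.562). Gfi1b read 6.53 and 5.38 in p53+/m and 7.15 and 6.85 in WT, a difference of -1.04 (95% interval -2.11 to 0.02). Among the related lists no gene was called between p53+/m and p53+/-. Against WT at 12 mo, Egr1 was higher in p53+/m by 1.68 (adjusted p = 0.0275), and Foxo1 was lower in p53+/m (-1.12) and in p53+/- (-1.37). Of 18 alternative settings, the Egr1 call was lost in 5 and the Foxo1 calls in 11 and 8, in that order. Cdkn1a, a p53 target, was not called in these comparisons and is named outside the naming rule of the lists. Its means were 9.89 in WT, 10.97 in p53+/- and 11.08 in p53+/m, where that of WT rests on 2 unlike arrays. The difference for p53+/m minus WT was 1.19 (limma adjusted p = 0.454).

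Ordered by the means of the 7 groups, the factors had different extremes. Gata2, Meis1, Lmo2 and Etv6 were lowest in WBM, whereas Gfi1, Gfi1b and Fli1 were highest there. For Gata2 the 6 HSC groups, from p53+/- (9.23) to p53+/m (10.15), mostly overlapped with their neighbors in the order, and only WBM (5.73) and the step between WT 21 mo (9.77) and WT 12 mo (10.07) were free of overlap. For Gfi1 the order ran from p53+/m (5.63 ± 0.33, SD, n = 2) and WT 21 mo (5.68 ± 0.01) through p53+/- (6.44 ± 0.50), WT 12 mo (6.63 ± 0.31), WT 6 mo (7.41 ± 0.91) and WT 2 mo (8.32 ± 0.46) to WBM (8.97 ± 0.14). Neighbors in that order overlapped except between WT 21 mo and p53+/- and between WT 2 mo and WBM. For Meis1 it ran from WBM (6.82 ± 0.24) through WT 2 mo (10.84 ± 0.11), p53+/m (10.88 ± 0.30), WT 6 mo (11.06 ± 0.41) and p53+/- (11.28 ± 0.09) to WT 12 mo (11.94 ± 0.77) and WT 21 mo (12.03 ± 0.02), and only WBM and the step from p53+/- to WT 12 mo were free of overlap.

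The genes with the most similar profile were found by the root mean square (RMS) difference between group means, each gene centered on its own mean over the 7 groups, among the other 12392 genes. This was done for the 6 factors whose group means spanned at least 2 log2 units, and it carries no test. For Gata2 they were Tmem176a (RMS 0.22) and Gbp6 (0.24). For Meis1 they were Rilpl1 (0.25) and Hlf (0.25), itself a transcription factor of HSC that was 9.89 at 2 mo, 11.40 at 21 mo and 6.06 in WBM. Gfi1 was closest to Nsmce1 (0.33) and Dynlt1f (0.36), Gfi1b to Rcc1 (0.22) and Wrn (0.23), Etv6 to Tob2 (0.12) and Qtrt2 (0.15), and Fli1 to Etfa (0.19) and C1d (0.22). All profiles come from the same 14 arrays and include WBM. That of Etv6, which reached 5 on only 1 array, rests on low values.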

How the data were processed

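RNA of HSC and WBM was measured on 14 Affymetrix MOE430A arrays, 2 per group, and this number limits the precision. The authors made the values with GC-RMA, named as GCRMA in the submitters' processing notes, and deposited log2 values for 22626 probe sets plus 64 controls. The sources used here give neither its version nor whether the arrays were normalized together. The values were used as deposited, with no filter on low values.

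Probe sets were named by the platform's annotation (20380 with 1 symbol, 691 with several, 1555 with none). The members and the gene lists were chosen with earlier results of these data known. All members are named. Of each other list, up to 4 genes per direction with the largest change past the threshold are named. Cdkn1a between genotypes is an exception, named without a call.

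Tests used limma 3.58.1 in R 4.3.3 (lmFit, eBayes), with Benjamini-Hochberg adjustment over 22626 probe sets; a call needed an adjusted p under 0.05 and 2-fold. Age used 8 WT HSC arrays, HSC against WBM 10 WT arrays, and steps and genotypes 12 HSC arrays. The scripts were first tested on simulated data. Alternatives left out each array, both 12 mo arrays or low probe sets (those at 5 or above on fewer than 2 arrays of the fit), dropped the fold limit, and changed normalization, the arrays of the fit, the prior variance, the form of the trend, the WBM contrast and the probe sets of a gene. The letters were also tried as a block, although they do not pair arrays. Promoter windows are from RefSeq.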

Additional observations from a re-analysis of the deposited data

How the results depend on the processing

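No alternative setting turned the direction of the genes named as called from the related lists. The same held for any probe set of the 10 genes that differed by 2-fold, had an unadjusted p under 0.05 or was called in any setting. Of the counts of the 10 genes' probe sets called in each direction, 241 values stayed within 1.5 times the reported count and 21 did not. For age, 1 probe set was called higher with low probe sets left out and 1 without both 12 mo arrays (Meis1 in both), where the reported count was 0, and leaving out single arrays gave 0 to 1. The count lower with age, reported as 1, was 0 with the letters as a replicate block, 0 with group means over 8 WT HSC arrays, 0 without both 12 mo arrays, and 0 to 1 on leaving out single arrays. For HSC against WBM, the 2 lower became 1 with the replicate block, which lost Gfi1b (adjusted p = 0.0526), and 0 to 3 on leaving out single arrays (3 without 12 mo A or 12 mo B, where Runx1 passed). From 6 to 21 mo, 1 was lower with low probe sets left out (Gfi1). For p53+/m against WT, leaving out single arrays gave 0 to 1 higher and 0 to 1 lower. Calls over all probe sets moved with the same settings. For age they were 299 higher and 342 lower, but 991 and 1074 with low probe sets left out. Without both 12 mo arrays they were 1091 and 995, and with the block 136 and 153. Leaving out a single 2, 6 or 21 mo array lowered these counts, and leaving out a single WT 12 mo array raised them. The latter also raised the counts in every other comparison. In HSC against WBM, for 1, the 12 mo arrays are not compared and enter the fit only through its estimate of the spread. The cause was not tested. The letters do not pair the arrays: the 21 correlations between groups of the A minus B differences ran from -0.307 to 0.163, and beside the calls of Gfi1 with age (adjusted p = 0.0724) and Gfi1b against WBM the block changed no count of the 10 genes' probe sets. Among the values of these probe sets of the 10 genes, 461 kept their side of the threshold, 17 lost the call and 13 gained it. Among the named genes of the related lists, 564 values kept it and 120 lost the call, and the block ended the calls of Mycn, Egr1, Foxo1 and Csf1r with age, Rcor1 and Cited2 against WBM, Irf8 from 6 to 21 mo and Egr1 in p53+/m against WT. Of the counts called in the related lists, 1069 stayed within 1.5 times the reported count and 171 did not. The 2 arrays per group limit the precision of every value.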
